A study of Mus musculus with 2 samples.

Results

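The mural cell genes of blood vessels, 10 in all, were followed in total RNA from mouse heart. They were the pericyte genes Rgs5, Pdgfrb, Cspg4, Notch3, Higd1b and Mcam and the smooth muscle genes Tagln, Cnn1, Smtn and Myocd, taken by name from the 55536 genes of the deposited tables, and each was found. The hearts came from 2 male B6CASTF1/J mice, hybrids of the C57BL/6J and CAST strains, aged 8 to 10 months and untreated as far as the labels say. Replicate 1 is labelled animal 2 and replicate 2 animal 4. The labels also give both libraries a single donor entry, and the 2 were treated as separate animals. Each library was made from 300 ng of RNA with a kit that keeps strand. Replicate 1 held 42.05 M expected counts of mouse genes, and replicate 2 held 39.98 M. Both animals belong to 1 group, so no contrast between conditions exists and no test was made, and the values describe levels, isoforms and the difference between 2 animals with 1 library each. Here ± is the SD over the 2 libraries (n = 2), and TPM, the transcript share of a library, is scaled for transcript length.

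Mural cells wrap the endothelial tube. Pericytes sit on capillaries and are recruited by PDGF-B from the endothelium acting on the receptor Pdgfrb, while smooth muscle cells ring arteries and larger veins, depend on Notch3 signalling for their identity in arteries, and carry a contractile apparatus whose genes are driven by serum response factor, SRF, with its coactivator myocardin. In the heart the same RNA sample also holds cardiomyocytes, endothelial cells and fibroblasts, and some mural genes are not restricted to mural cells. Myocd was first described in heart muscle as well as smooth muscle.

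All 10 genes were read at 1 TPM or more in both libraries, a level reached by 49.0% of the 21938 nuclear protein-coding genes. Of the 10 genes, 7 reached 5 TPM in both, the exceptions being Cspg4, Higd1b and Cnn1. The share of all genes at 5 TPM was not computed. The levels spanned a wide range, with Rgs5 at 106 ± 1.22 TPM at the top and Cnn1 at 1.45 ± 0.255 TPM at the bottom, and the median over the 10 genes was 10.0 TPM in replicate 1 and 11.1 TPM in replicate 2. The order by mean TPM was Rgs5, Smtn, Myocd, Tagln, Mcam, Pdgfrb, Notch3, Cspg4, Higd1b and Cnn1. Of the 9 neighbouring pairs in that order, 8 did not overlap between libraries, and Pdgfrb and Notch3 did. In whole tissue a level cannot tell the number of cells of a type from the RNA per cell.

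**Figure D1:**
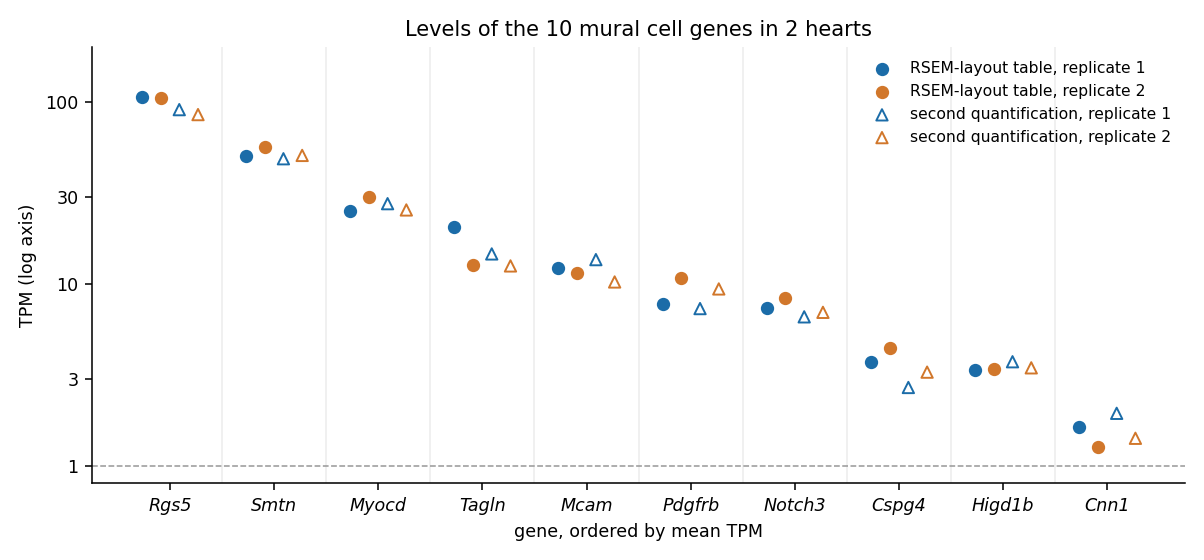
TPM on a log axis for the 10 genes in replicate 1 and replicate 2, from the RSEM-layout table (filled circles) and from the second quantification of the same reads (open triangles). The dashed line marks 1 TPM. Rgs5 lies above every other gene in all 4 columns, and Tagln is the gene whose 2 filled circles stand farthest apart, at 20.5 TPM in replicate 1 and 12.8 TPM in replicate 2.

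Rgs5, a regulator of G-protein signalling that speeds the shut-off of G proteins and is among the most used pericyte markers (ENSMUSG00000026678.10, mm10 chromosome 1, 169655501 to 169695813, plus strand), had 14425 counts in replicate 1 and 13576 in replicate 2. Its level was 107 TPM in replicate 1 and 105 TPM in replicate 2, so the 2 hearts were nearly alike, and 97.7% of nuclear protein-coding genes had a lower mean. The gene stood at 88.1 ± 3.92 TPM in the second quantification. Myh6, the cardiac myosin heavy chain, was 62.4-fold higher than Rgs5, which places the highest of the 10 genes against heart muscle. Folds between genes are taken from the mean log2 ratio of TPM over the 2 libraries.

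The receptors of the list were read at moderate levels. Pdgfrb, the receptor for PDGF-B (ENSMUSG00000024620.11), had 7.73 TPM in replicate 1 and 10.7 TPM in replicate 2. Notch3, the Notch receptor of arterial smooth muscle and pericytes (ENSMUSG00000038146.8, chromosome 17, 32120820 to 32166852, minus strand), had 7.37 TPM in replicate 1 and 8.40 TPM in replicate 2. Both receptors were lower in replicate 1, and their ranges overlapped each other. Adhesion, matrix and mitochondrial markers completed the pericyte group. Mcam, the adhesion molecule CD146, which endothelial cells also carry (ENSMUSG00000032135.15, chromosome 9, 44134469 to 44142727, plus strand), had 12.3 TPM in replicate 1 and 11.5 TPM in replicate 2. Cspg4, the NG2 proteoglycan, which glial precursors also carry (ENSMUSG00000032911.6, chromosome 9, 56865033 to 56899870, plus strand), had 3.73 TPM in replicate 1 and 4.43 TPM in replicate 2. Of these, Mcam was slightly higher in replicate 1 and Cspg4 lower. Higd1b, of the hypoxia-inducible domain family (ENSMUSG00000020928.14, chromosome 11, 102835849 to 102838040, plus strand), had 3.38 TPM in replicate 1 and 3.39 TPM in replicate 2. That level rested on 57 counts in replicate 1 (exact 95% counting interval 43.2 to 73.9) and 64 in replicate 2 (49.3 to 81.7).

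The smooth muscle genes did not share a level. Smtn, which encodes smoothelin, an actin-associated protein of contractile smooth muscle (ENSMUSG00000020439.17, chromosome 11, 3517523 to 3540612, minus strand), had 50.8 TPM in replicate 1 and 56.7 TPM in replicate 2. Myocd, the SRF coactivator (ENSMUSG00000020542.18, chromosome 11, 65176561 to 65269989, minus strand), had 25.2 TPM in replicate 1 and 30.2 TPM in replicate 2. Both stood above the 2 calponin-family proteins of the contractile apparatus. Tagln, which encodes the actin-binding protein SM22 alpha (ENSMUSG00000032085.5, chromosome 9, 45929619 to 45936058, minus strand), had 20.5 TPM in replicate 1 and 12.8 TPM in replicate 2. Cnn1, calponin 1, an inhibitor of actomyosin in smooth muscle (ENSMUSG00000001349.5, chromosome 9, 22099216 to 22109630, plus strand), had 1.63 TPM in replicate 1 and 1.27 TPM in replicate 2. Tagln was thus 11.2-fold higher than Cnn1, and Smtn 3.32-fold higher than Tagln. The level of Cnn1 rested on 109 counts in replicate 1 and 63 in replicate 2.

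Other genes of both cell types were read at comparable levels. All 16 further pericyte-enriched genes were at 1 TPM or more in both libraries, with a median of 5.19 ± 0.435 TPM. They were led by Abcc9, the sulfonylurea receptor of the pericyte potassium channel, which heart muscle also makes, at 82.4 TPM in replicate 1 and 93.3 TPM in replicate 2. Ednra, the endothelin A receptor, was at 11.5 ± 2.04 TPM, and Angpt1, the ligand of the endothelial receptor Tie2, was at 9.26 ± 0.552 TPM. Kcnj8, the channel partner of Abcc9, had 5.64 TPM in replicate 1 and 8.49 TPM in replicate 2. Of 19 further smooth muscle genes, 16 were at 1 TPM or more in both libraries, with a median of 9.44 ± 0.0566 TPM. Des (454 ± 19.8 TPM), Myl6 (81.7 ± 8.29 TPM), Pcp4l1 (74.3 ± 9.70 TPM) and Ppp1r12b (64.3 ± 2.39 TPM) led them, and of these desmin is also a cardiomyocyte protein. Acta2, smooth muscle actin, had 27.6 TPM in replicate 1 and 21.4 TPM in replicate 2, and Myh11, the smooth muscle myosin heavy chain, had 8.39 TPM in replicate 1 and 7.88 TPM in replicate 2. Rgs5 was 4.37-fold higher than Acta2, and 3.07-fold higher in the second quantification.

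Markers of the other cells were read as follows. Cardiomyocyte, endothelial and fibroblast markers were each present at 10 of 10, with medians of 2230 ± 31.0, 23.4 ± 0.580 and 16.8 ± 0.293 TPM. Glial markers were low, with Cnp alone of 8 at 1 TPM or more in both libraries and a summed level of 4.76 TPM in replicate 1 and 4.72 TPM in replicate 2. Olig2 had 0 counts in each library, which allows up to 3 counts per library. These glial values stand beside Cspg4, which glial precursors share. Of 5 genes for visceral or airway smooth muscle and lung none was at 1 TPM or more in both libraries, and their summed level was 35.7 TPM in replicate 1 and 0.21 TPM in replicate 2. Bpifa1 and Scgb1a1, secreted proteins of airway epithelium, made up nearly all of it, with 682 and 204 counts in replicate 1 and 0 counts of each in replicate 2. Actg2, the visceral smooth muscle actin, had 20 counts in replicate 1 and 8 in replicate 2, Hhip had 2 in replicate 1 and 1 in replicate 2, and Sftpc had 0 in each.

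Within their protein families, Rgs5 and Smtn were the highest members, and Higd1b and Cnn1 stood well below their main paralogs. Rgs5 was the highest of 21 Rgs genes, of which 9 were at 1 TPM or more in both libraries. It was 10.7-fold above Rgs3, 14.3-fold above Rgs2 and 28.4-fold above Rgs4, another pericyte-enriched regulator. Smtn was 9.19-fold above Smtnl2, a smoothelin-like paralog, and 5.27-fold above it in the second quantification. Smtnl1, the other paralog, was at 0.03 TPM in replicate 1 and 0.02 TPM in replicate 2.

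In the HIG and calponin families the mural genes were not the highest. Higd1a, a widely made mitochondrial paralog, was 20.4-fold above Higd1b, at 66.5 TPM in replicate 1 and 72.0 TPM in replicate 2. Higd1c, listed at 0 in both libraries, was the only HIG gene found below Higd1b. Cnn2 and Cnn3, the calponins of nonmuscle cells, were 8.34-fold and 7.97-fold above Cnn1. Tagln2, a transgelin found outside smooth muscle, had 26.9 TPM in replicate 1 and 14.7 TPM in replicate 2, which was 1.23-fold above Tagln. Tagln3, a neuronal form, was at 0.05 TPM in replicate 1 and 0.21 TPM in replicate 2.

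The partners of Myocd, Pdgfrb and Notch3 were also read. Srf, the DNA-binding partner of Myocd, had 36.8 TPM in replicate 1 and 37.4 TPM in replicate 2. Its level was 1.34-fold above Myocd, and 1.06-fold above it in the second quantification. The myocardin-related coactivators were lower, with Myocd 3.24-fold above Mrtfb and 11.4-fold above Mrtfa. All 7 genes of this group found in the tables were at 1 TPM or more in both libraries, with a median of 20.2 TPM, and Fhl2, an SRF cofactor of heart muscle, led it at 702 ± 33.4 TPM.

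Of the 7 PDGF genes, 6 were at 1 TPM or more in both libraries, and Pdgfrl was not. Pdgfb, the ligand of Pdgfrb, had 9.64 TPM in replicate 1 and 11.4 TPM in replicate 2, which was 1.15-fold above its receptor. Pdgfrb was 1.34-fold above Pdgfra, the receptor of fibroblasts, which had 6.25 TPM in replicate 1 and 7.41 TPM in replicate 2. All 15 Notch genes were at 1 TPM or more in both libraries, with a median of 5.88 ± 0.877 TPM. Among the receptors, Notch1 was at 10.0 ± 0.672 TPM and Notch4 at 9.86 ± 1.10 TPM, above Notch3 at 7.89 ± 0.728 TPM, while Notch2 was at 6.11 ± 1.20 TPM. Jag1, the ligand that signals to Notch3 from endothelium, had 3.17 TPM in replicate 1 and 2.85 TPM in replicate 2. Heyl, a Notch target of vascular smooth muscle, had 3.75 TPM in replicate 1 and 5.03 TPM in replicate 2.

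**Figure D2:**
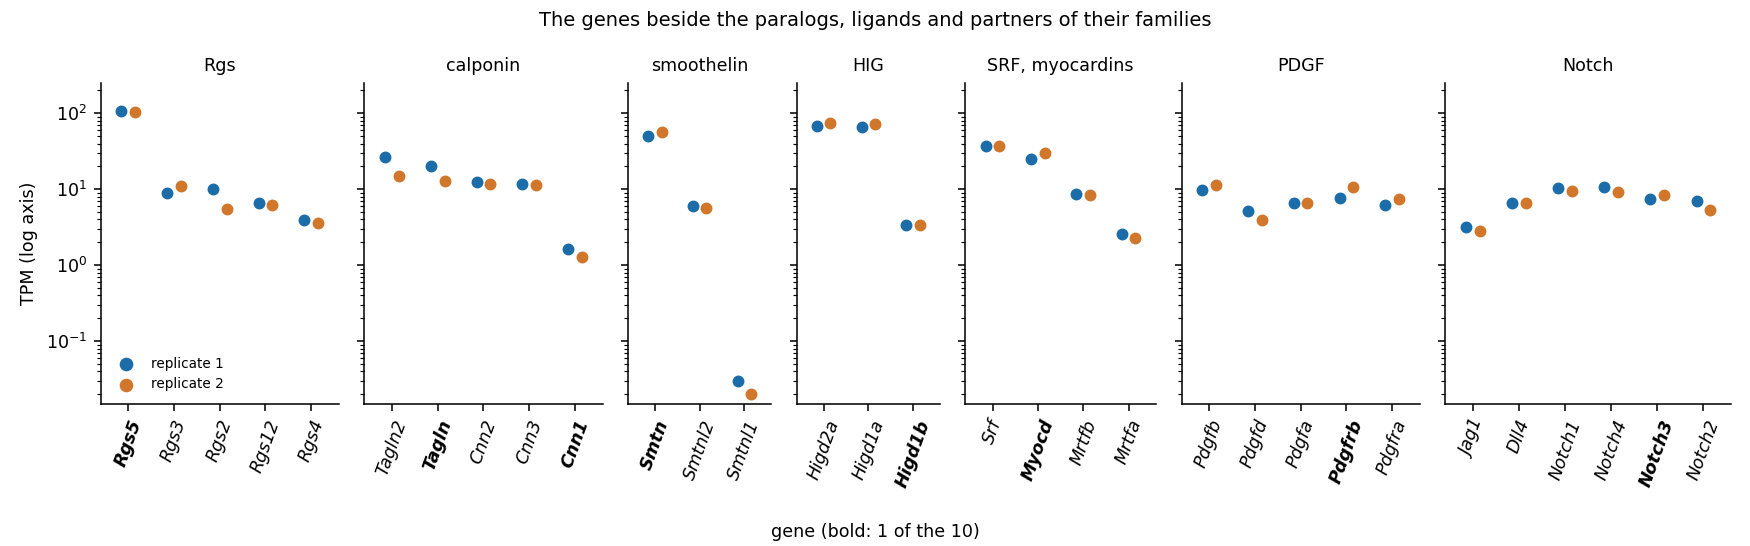
TPM on a log axis in replicate 1 (left point) and replicate 2 (right point) for the genes, in bold, and for paralogs, ligands and partners, in 7 panels by family. Among the genes plotted, Rgs5 and Smtn stand highest in their panels and Cnn1 and Higd1b lowest; Tagln3 and Higd1c, which lie lower in the same families, are not plotted.

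The 2 hearts were then compared gene by gene. Counts were scaled by TMM, the ratio is replicate 1 over replicate 2, and 8 of the 10 genes passed the minimum of 200 summed counts, with Higd1b and Cnn1 below it. None of the 8 differed by 2-fold or more, against 1.08% of the 10960 genes so counted, and none by 1.5-fold or more, against 3.71% of them. The median log2 ratio of the 8 genes was -0.03, with -0.01 over all genes, and their median absolute log2 ratio was 0.126, with 0.107 over all genes. Of the 8, 4 were higher in replicate 1 and 4 in replicate 2, beside 5052 and 5908 of all 10960 genes. The 95% counting interval of the ratio left out 1 for 5 of the 8, namely Rgs5, Tagln, Pdgfrb, Notch3 and Cspg4, against 36.5% of all genes, so the 2 libraries differed from each other by more than counting error. These intervals cover counting error only, since the reads carry no molecular identifiers in the tables, and they leave out the variation between animals. For Rgs5 the interval of the fold ran from 1.0001 to 1.0483. The log2 ratio of Rgs5 was 0.034, or 0.015 with scaling by total counts, so its place among the 5 is marginal. The biological coefficient of variation, which is the spread beyond counting error, was 0.121 as estimated in common over 14694 genes of the 2 libraries.

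Individual genes differed in direction. Tagln had 756 counts in replicate 1 and 512 in replicate 2, and its log2 ratio was 0.51 with a counting interval of 0.35 to 0.67. Pdgfrb had 1428 counts in replicate 1 and 1867 in replicate 2, and its log2 ratio was -0.44 (-0.54 to -0.34). Tagln and Pdgfrb both lay outside the central 90% of all genes, which ran from -0.333 to 0.401, in opposite directions. Cspg4 had 782 counts in replicate 1 and 960 in replicate 2, with a log2 ratio of -0.35 (-0.49 to -0.21). Notch3 had 1991 counts in replicate 1 and 2182 in replicate 2, with a log2 ratio of -0.19 (-0.27 to -0.10). Cspg4 therefore lay just past the same lower bound, and Notch3 within it. Rgs5, Mcam, Myocd and Smtn had log2 ratios between -0.07 and 0.03. Below the count minimum, Cnn1 had a log2 ratio of 0.74 (0.28 to 1.21), and Higd1b one of -0.22 (-0.76 to 0.32).

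The other genes of both cell types held members of either direction. Of the 14 further pericyte genes at the count minimum, 5 were higher in replicate 1 and 9 in replicate 2, with a median log2 ratio of -0.06, which is near the split of all genes. Of the 16 further smooth muscle genes at the count minimum, 10 were higher in replicate 1 and 6 in replicate 2, with a median log2 ratio of 0.21. The pericyte genes Abcc9 (log2 ratio -0.13, -0.16 to -0.10) and Kcnj8 (-0.57, -0.75 to -0.40) were lower in replicate 1, and Ednra (0.40, 0.29 to 0.51) was higher. Among smooth muscle genes, Acta2 (0.32, 0.20 to 0.43) and Myl6 (0.26, 0.17 to 0.36) were higher in replicate 1. The smooth muscle genes Des (-0.06, -0.08 to -0.04), Pcp4l1 (-0.24, -0.30 to -0.17) and Ppp1r12b (-0.09, -0.12 to -0.06) were lower. Tagln2, which is in neither list, had a log2 ratio of 0.88 (0.74 to 1.02). Cardiomyocyte markers were lower in replicate 1 for 9 of 10, with a median log2 ratio of -0.08, beside 5908 of all 10960 genes. Endothelial and fibroblast markers were each higher there for 6 of 10, with median log2 ratios of 0.09 and 0.07. Replicate 1 also held the airway transcripts Bpifa1 and Scgb1a1, against 0 counts of each in replicate 2, and airways carry smooth muscle of their own. The part of airway RNA in the higher Tagln and Cnn1 of replicate 1 was not tested. The part of the amount of heart muscle in the lower Pdgfrb, Cspg4 and Notch3 of replicate 1 was not tested.

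**Figure D3:**
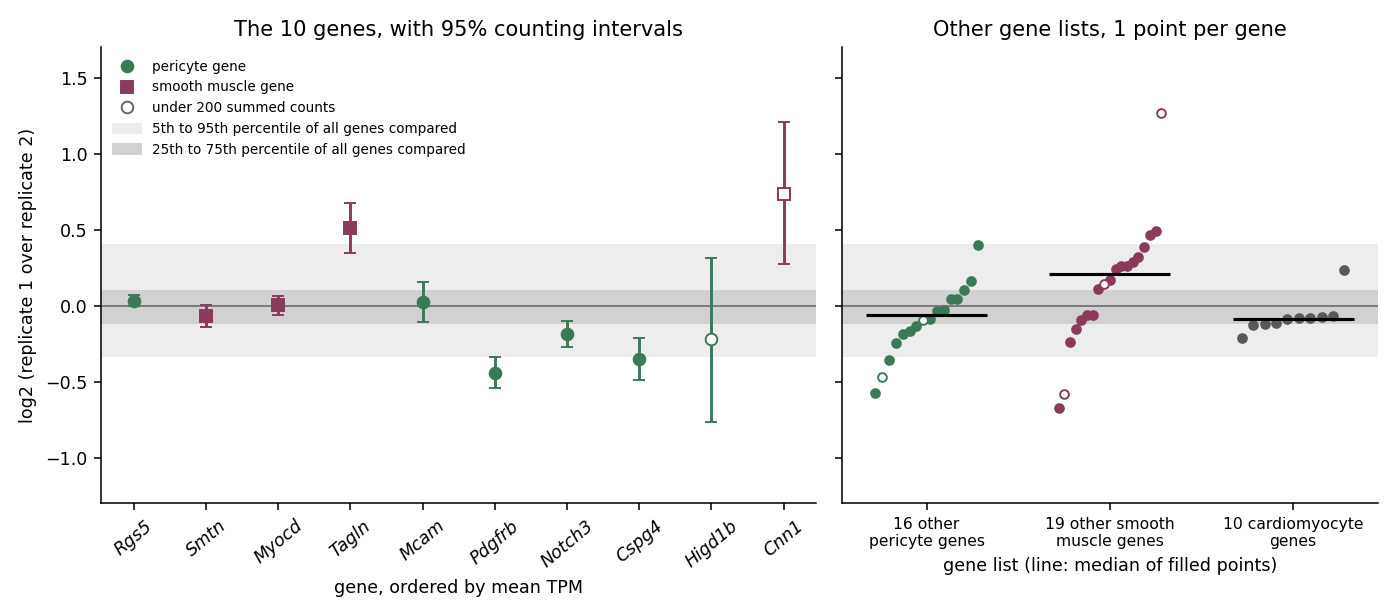
Log2 ratio of replicate 1 over replicate 2 from scaled counts, for the 10 genes with 95% counting intervals (left) and for single genes of 3 other lists (right), where open symbols have under 200 summed counts, black lines are medians of the filled points, and grey bands hold the central 50% and 90% of 10960 genes. Tagln lies above the wider band at 0.51 and Pdgfrb below it at -0.44, and the medians of the filled points are -0.06 for 14 other pericyte genes, 0.21 for 16 other smooth muscle genes and -0.08 for 10 cardiomyocyte genes.

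The way reads were assigned moved some levels. None of the 10 genes differed by 1.5-fold or more between the RSEM-layout table and the second quantification, against 3.36% of 10857 nuclear protein-coding genes at 1 TPM or more. The largest difference among the 10 was that of Cspg4, at 4.08 ± 0.495 TPM in the RSEM-layout table and 2.98 ± 0.408 TPM in the second quantification. In the second quantification Higd1b stood above Cspg4, and Tagln and Mcam overlapped. For Tagln the ratio of TPM between the hearts exceeded that of counts, at a log2 of 0.68 for TPM and 0.51 for counts, while in the second quantification the log2 ratio of TPM was 0.22. The short and incompletely annotated transcript Tagln-202 was at 7.20 TPM in replicate 1 and 2.81 TPM in replicate 2 in the RSEM-layout table, and at 0.317 TPM in replicate 1 and 3.16 TPM in replicate 2 in the second quantification. The full-length Tagln-201 was at 13.2 TPM in replicate 1 and 9.89 TPM in replicate 2, and at 14.2 TPM in replicate 1 and 9.33 TPM in replicate 2 in the second quantification. Tagln-201 was thus higher in replicate 1 in both. On the opposite strand, the antisense gene Gm48529 covers 62.4% of the exon bases of Tagln, with 20 counts in replicate 1 and 32 in replicate 2. The protein-coding gene Pcsk7, also on that strand, covers 5.43% of them, with 590 counts in replicate 1 and 518 in replicate 2. Counting by strand is not stated in the sources used here. Short stretches of 31 bases found also in transcripts of another gene made up at most 1.35% of any of the 10 genes, the highest share being that of Notch3.

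The 10 genes have 44 annotated transcripts. For 9 genes the same transcript led in both libraries and both quantifications, and the exception was Higd1b. Rgs5-201 (181 residues) carried 96.3% of Rgs5 in replicate 1 and 97.8% in replicate 2, and Notch3-201 carried 97.9% of Notch3 in replicate 1 and 100% in replicate 2. Higd1b-201 carried 37.1% of Higd1b in replicate 1 and 74.6% in replicate 2, and the rest was Higd1b-202. Both encode 98 residues. Cspg4-201, the coding transcript of Cspg4, carried 52.3% in replicate 1 and 69.6% in replicate 2, and 86.8 ± 0.750% in the second quantification. The remainder of Cspg4 was assigned to 3 transcripts annotated as retained introns. Cnn1-201 carried 69.4% of Cnn1 in replicate 1 and 51.2% in replicate 2, on 89.5 counts in replicate 1 and 48.7 in replicate 2, and 50.2% in replicate 1 and 27.4% in replicate 2 in the second quantification. Isoform choice that alters the protein was read for Smtn, Myocd and Mcam, whose sequences are shown next.

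Smoothelin is made in a short form, described mainly in visceral smooth muscle, and a long form, described mainly in vascular smooth muscle. The short transcript Smtn-201 (436 residues) starts from a first exon of its own, at chr11:3527428-3527937 on the minus strand, which lies within an intron of the long transcript Smtn-202 (921 residues). Smtn-201 was at 36.8 TPM in replicate 1 and 41.5 TPM in replicate 2, and Smtn-202 was at 6.50 TPM in replicate 1 and 5.27 TPM in replicate 2. The short form was the higher in both hearts and made up 80.3% of the full-length transcripts in replicate 1 and 83.3% in replicate 2, or 79.9 ± 2.75% in the second quantification. Actg2, the visceral smooth muscle actin, was at 0.55 TPM in replicate 1 and 0.21 TPM in replicate 2 in the same libraries. The starts of the coding sequences share no exon, and the first 90 coding bases of each are shown here from the GENCODE M21 transcripts, with the start codon in capitals.
Smtn-201: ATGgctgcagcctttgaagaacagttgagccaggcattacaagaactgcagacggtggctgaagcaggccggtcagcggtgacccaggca
Smtn-202: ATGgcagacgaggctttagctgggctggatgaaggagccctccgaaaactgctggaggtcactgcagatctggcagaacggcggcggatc

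Myocardin is also made in forms that differ by exons. In the mouse, smooth muscle is known to use a form that begins translation downstream of the start used in heart muscle, through an extra exon early in the transcript. Myocd-203 (983 residues) differs from Myocd-202 (935 residues) in the coding sequence by an exon of 144 bases at chr11:65184488-65184631 on the minus strand. Myocd-203 was at 20.2 TPM in replicate 1 and 18.4 TPM in replicate 2, and Myocd-202 was at 2.67 TPM in replicate 1 and 4.66 TPM in replicate 2. The form with the exon made up 88.3% of the pair in replicate 1 and 79.8% in replicate 2, and 92.7 ± 0.881% in the second quantification, so it led by either assignment. Both assignments used the same reads, and Myocd-202 has only 40 stretches of 31 bases of its own. The exon is shown in capitals between 15 bases of its neighbours, above the junction without it in Myocd-202, both from the GENCODE M21 transcripts.
Myocd-203 exon: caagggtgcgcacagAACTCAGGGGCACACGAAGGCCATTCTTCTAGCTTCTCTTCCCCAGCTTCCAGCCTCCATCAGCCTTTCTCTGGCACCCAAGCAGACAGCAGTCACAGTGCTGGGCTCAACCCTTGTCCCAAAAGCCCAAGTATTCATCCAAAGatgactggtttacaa
Myocd-202 junction: caagggtgcgcacagatgactggtttacaa

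A further exon of 44 bases, at chr11:65228818-65228861 on the minus strand, sits early in the gene, within an intron of the coding transcripts Myocd-203 and Myocd-202, and is carried by Myocd-205, which is annotated without a coding sequence. Its length is not a whole number of codons, and the exon is shown here in capitals with its neighbours. Myocd-205 was at 2.16 TPM in replicate 1 and 5.68 TPM in replicate 2, and at 5.16 TPM in replicate 1 and 4.72 TPM in replicate 2 in the second quantification. It rested on 20.8 counts in replicate 1 and 51.7 in replicate 2, beside 3527 and 3028 counts of Myocd-203 in the same libraries, and the replicate in which it was higher differed between the quantifications. Myocd-201 (855 residues), which starts in a later exon, was at 0 in both libraries of the RSEM-layout table and at 2.05 TPM in replicate 1 and 0.497 TPM in replicate 2 in the second quantification. It has no stretch of 31 bases of its own, so its reads can be assigned to other Myocd transcripts.
Myocd-205 exon: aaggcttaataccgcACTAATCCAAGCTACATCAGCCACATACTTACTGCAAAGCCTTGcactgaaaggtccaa

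CD146 is known in a long and a short form with different cytoplasmic tails. Mcam-201 (648 residues) carries an exon of 118 bases at chr9:44141275-44141392 on the plus strand that Mcam-202 (606 residues) skips. Of the whole gene, Mcam-201 held 55.9% in replicate 1 and 73.0% in replicate 2. In the second quantification it held 46.3% in replicate 1 and 67.9% in replicate 2. Mcam-206, a transcript of 457 bases outside this pair, held 23.8% in replicate 1 and 19.4% in replicate 2. Mcam-201 was at 6.85 TPM in replicate 1 and 8.39 TPM in replicate 2, while Mcam-202 was at 2.17 TPM in replicate 1 and 0.68 TPM in replicate 2. The form with the exon made up 75.9% of the pair in replicate 1 and 92.5% in replicate 2, and 76.3% in replicate 1 and 89.6% in replicate 2 in the second quantification. The share was thus lower in replicate 1 by both assignments, while the level of the whole gene had a log2 ratio of 0.02 (-0.11 to 0.16) between the hearts. The split rested on 202 expected counts of Mcam-202 in replicate 1 and 59.8 in replicate 2. Mcam-202 has 30 stretches of 31 bases of its own and Mcam-201 has 151, so most of these counts come from assigning shared reads. Both assignments used the same reads. The exon is shown in capitals with its neighbours, above the junction of Mcam-202.
Mcam-201 exon: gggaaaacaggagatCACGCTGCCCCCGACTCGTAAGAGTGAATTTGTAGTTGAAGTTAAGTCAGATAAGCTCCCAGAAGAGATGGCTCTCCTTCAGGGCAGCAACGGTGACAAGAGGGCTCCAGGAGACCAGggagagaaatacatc
Mcam-202 junction: gggaaaacaggagatggagagaaatacatc

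**Figure D4:**
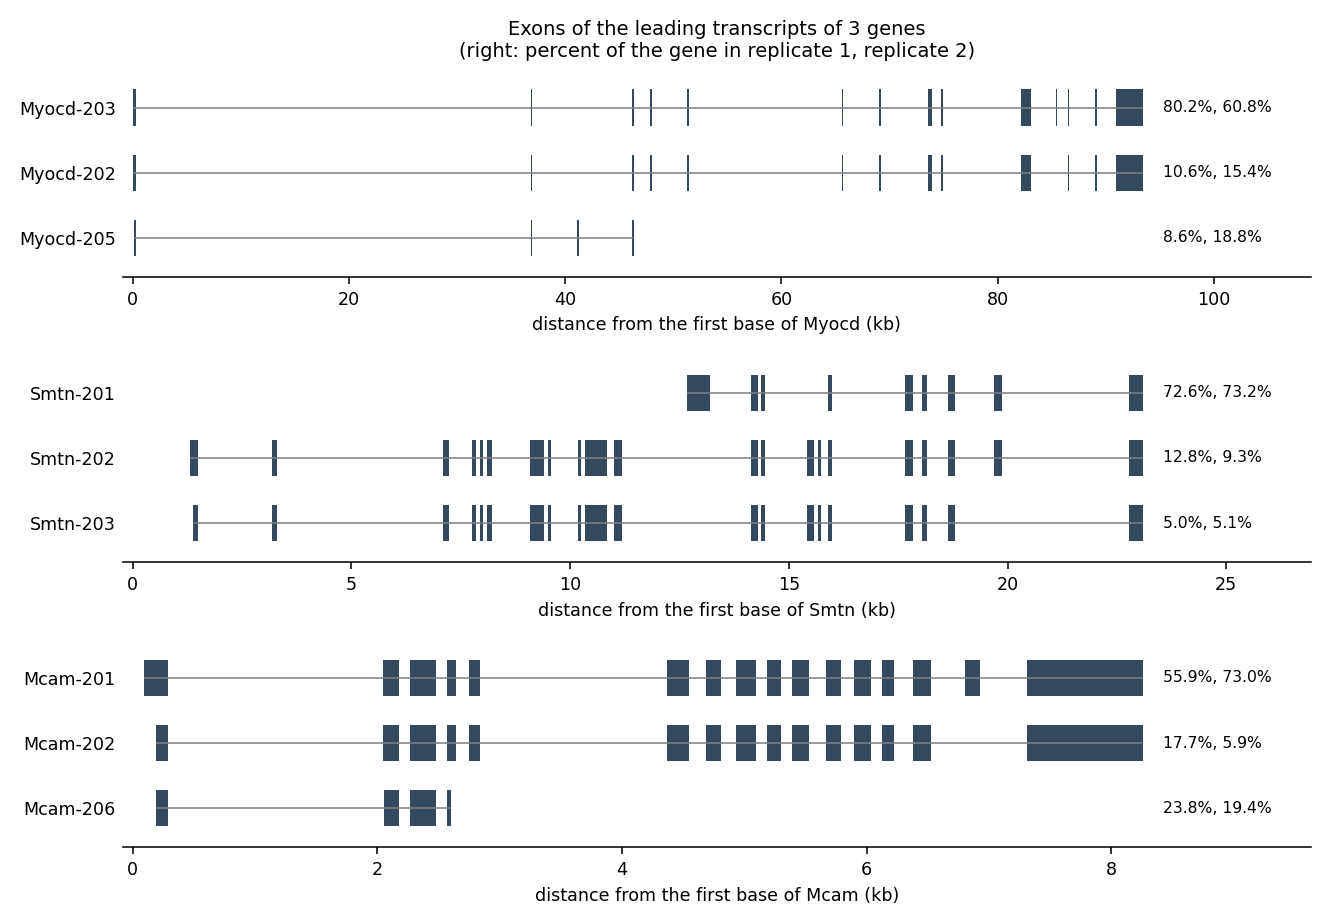
Exons (boxes) and introns (lines) of the leading transcripts of Myocd, Smtn and Mcam by distance in kb from the first base of the gene, with the percent of the gene assigned to each transcript in replicate 1 and replicate 2 at the right. Smtn-201, which begins inside the long forms, holds 72.6% and 73.2% of Smtn, and Myocd-203 and Mcam-201, the forms with the extra exon, lead their genes.

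SRF acts through a DNA motif called the CArG box. The RefSeq table of promoter windows (GRCm38.p6, 300 bases around the annotated start) was searched outside chromosome 18. There it held 6 of the 10 genes, namely Rgs5, Cspg4, Cnn1, Notch3, Smtn and Mcam. Tagln, Myocd and Higd1b had no window there. Pdgfrb lies on chromosome 18, so its window was not looked for. None of the 6 windows held a CArG box on either strand, against 1.63% of the 32851 windows of 300 bases searched. At so low a share, absence from 6 windows does not set these genes apart from others. The window of Smtn lies at the start of the long form. Those letters are not in these windows, and nothing follows from this on binding elsewhere.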

How the data were processed

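Per the labels, total RNA from heart was depleted of ribosomal RNA, made into strand-keeping libraries with spike-ins and sequenced. Per the deposited file listings, the authors assigned reads to mm10 with GENCODE M21; the software is not named in the sources used here. The deposited gene and transcript tables, per the file headers in the layout of RSEM, hold expected counts, TPM, FPKM and each transcript's percent of its gene. A second deposited transcript table per library holds estimated counts and TPM, and was summed per gene. Both come from the same reads. The total count per library sets the precision.

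The members, lists and naming rule (all members, up to 4 genes per list by mean TPM, direct partners and absent markers) were chosen with earlier results of these data known. Expected counts were rounded, scaled by TMM (edgeR 4.0.16) and compared as replicate 1 over replicate 2 for genes with 200 or more summed counts, with exact Clopper-Pearson 95% intervals. No gene was tested for significance, since each animal gave 1 library. The labels give both libraries a single donor entry, so the count of 2 animals rests on the animal labels. Alternatives were DESeq2 1.42.0 size factors, total counts, TPM, the second quantification and other thresholds. Python 3.11.15 and R 4.3.3 were used. All names in the lists but 3 matched; Mkl1 and Mkl2 are Mrtfa and Mrtfb in the files.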

Additional observations from a re-analysis of the deposited data

How the results depend on the processing

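No paired analysis was possible because both libraries belong to 1 group. The count of genes at 1 TPM or more in both libraries was 10 under every alternative with that threshold and was 10 without either replicate. It was 7 at 5 TPM, a level for which the share of all genes was not computed. Rescaling TPM over nuclear protein-coding genes gave a median of 29.1 TPM over the 10 genes in place of 10.5, and that factor applies to each gene of a library alike. Without one or the other replicate the median was 10.0 to 11.1 TPM. The count of genes past 1.5-fold between the animals was 1 with the ratio of deposited TPM, against 5.25% of all 10960 genes compared. It was 1 with log2(TPM + 1), against 2.63% of them, and the gene was Tagln in both. With no minimum of summed counts it was 1, which was Cnn1, against 36.2% of 23657 genes. The median log2 ratio of the genes was -0.18 with the ratio of deposited TPM and -0.16 with log2(TPM + 1), which follow transcript length as well as counts. None of the 10 genes passed 2-fold between the animals, or 1.5-fold between the quantifications, under the alternatives run. The alternatives for the log2 ratio took counts, and not TPM, from the second quantification. Under them the log2 ratio of Tagln lay between 0.49 and 0.68, that of Pdgfrb between -0.47 and -0.42, and that of Cnn1 between 0.21 and 0.90. By TPM of the second quantification the log2 ratio was 0.22 for Tagln, -0.36 for Pdgfrb and 0.46 for Cnn1. By counts of the second quantification the log2 ratio of Tagln was 0.50, beside 0.51 in the main setting. Its TPM ratio thus depended on how reads were assigned, while its count ratio hardly moved. Of the 10 levels, 4 moved by more than the SD between libraries in the second quantification, namely those of Rgs5, Notch3, Cspg4 and Higd1b. That SD comes from 2 values per gene. A shift of Higd1b from 3.38 to 3.59 TPM therefore counted, and one of Tagln from 16.6 to 13.6 TPM did not.

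With 2 animals and 1 library each, a difference between hearts cannot be told from variation in dissection, cell content or library. Cnn1 and Higd1b rest on few counts, and the short transcripts of Myocd, Tagln and Higd1b on fewer, so their shares depend on how reads were assigned. Reads of the CAST allele were assigned against mm10, and what that does to each gene was not analysed here.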

Other observations

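A few genes near the 10 stood apart between the hearts and were chosen after their values were seen. Dll1, a Notch ligand, had 240 counts in replicate 1 and 128 in replicate 2, with a log2 ratio of 0.85 (95% counting interval 0.54 to 1.17). Rgs2 had 517 counts in replicate 1 and 305 in replicate 2, with a log2 ratio of 0.71 (0.50 to 0.92). Cldn5, the endothelial tight junction protein, had 388 counts in replicate 1 and 218 in replicate 2, with a log2 ratio of 0.78 (0.54 to 1.02). All 3 were higher in replicate 1, and Ramp1, a receptor partner for the vasodilator peptide CGRP, was lower there, with 92 counts in replicate 1 and 141 in replicate 2 and a log2 ratio of -0.67 (-1.06 to -0.28).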
